A study of Homo sapiens with 13 samples.

Results

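The mRNAs of 30 nuclear pore complex genes were followed during a pulse and chase of metabolic label in human K562 cells. The genes were chosen by symbol as nucleoporins or their anchors, with no measured value in the choice. Earlier results of these data were known when they were chosen. All 30 symbols matched a row among the 59204 human gene IDs measured. The nuclear pore complex is the gated channel through which proteins and RNA cross the nuclear envelope. It is built from many copies of each nucleoporin in stacked rings: outer rings of the Y complex on both faces, an inner ring around a channel lined with phenylalanine-glycine repeats, a membrane ring that anchors the assembly, filaments on the cytoplasmic face and a basket on the nuclear face. Importins and exportins carry cargo through the channel, and the small GTPase Ran gives the transport its direction.

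K562 is an established line from a chronic myeloid leukaemia, and all 13 libraries came from it. In 12 libraries the cells had received 30 µM 4-thiouridine (4sU), a uridine analogue built into new RNA, for 12 h with the medium replaced every 3 h, and were then washed and moved to medium with 3 mM uridine. They were collected after 0, 1, 2, 4, 8 and 12 h of this chase, with 2 replicates at each time, and 1 library came from cells without 4sU. RNA was alkylated with iodoacetamide, mixed with 5% RNA of Drosophila S2 cells and sequenced from its 3′ ends (SLAM-seq). Each gene had a count of all reads, called the total here, and a count of reads named nascent in the deposited tables, called labelled here. Whether the replicates were separate cultures is not in the labels, so p-values measure only the spread between these libraries, which may be technical. In such bulk RNA, fewer cells with a transcript and less of it per cell cannot be told apart.

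Total counts were 9004529 to 17425584 per library, so that 0 counts of a gene in the shallowest library allow a share of up to 3.33e-05%. The 30 genes had 133 to 6385 total counts each in a library. The 95% Wilson interval of a gene's labelled share in 1 library was 0.767 to 14.4 percentage points wide (median 6.20 over 360 shares), and such intervals and floors cover counting error only. The summed counts per 1e6 total counts (CPM) of 10 erythroid markers were 9617 to 13123 in the chase libraries and 4456 without 4sU, against 54.6 to 69.3 for 5 fibroblast and epithelial markers, 18.3 to 36.8 for 6 lymphocyte markers and 4.18 to 16.2 for 4 monocyte markers, none of which was at 0 in all libraries. The composition of the spike-in RNA split the libraries along its first component (68.4% of the variance of 597 spike-in genes). Those of 0, 1 and 2 h and the first replicate of 4 h fell together. The second replicate of 4 h, the libraries of 8 and 12 h and the one without 4sU fell opposite, so that library composition moved with chase time. Its part in the differences between 12 h and 0 h, and between 0 h and no 4sU, was not tested apart from the values given with the side as a factor.

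As a group, the pore mRNAs were more heavily labelled than the libraries at the end of the pulse and less labelled at the end of the chase. Their summed labelled share averaged 60.4% ± 0.924 (0 h), 56.4% ± 0.0487 (1 h), 47.5% ± 0.0368 (2 h), 31.0% ± 0.415 (4 h), 14.2% ± 0.425 (8 h) and 7.41% ± 0.251 (12 h), each with the SD of 2 libraries. The labelled share of all counts was 10.75% ± 0.274 at 12 h and 36.0% ± 0.175 at 0 h. Both shares are sums in which genes with many counts weigh most, so they do not compare typical genes. Loss per gene is compared further on. Without 4sU none of the 52836 counts on the 30 genes was labelled, which allows a share of up to 0.00568%. Their summed level was 3032 CPM without 4sU, then 1908 ± 17.0 (0 h), 1941 ± 7.20 (1 h), 2183 ± 48.4 (2 h), 2529 ± 49.1 (4 h), 2962 ± 35.7 (8 h) and 3093 ± 18.2 (12 h). In plain CPM the sum at 12 h was thus above that of 0 h and close to the level without 4sU. Single genes moved in both directions. Per spike-in count, 15.0 and 16.3 human counts were read at 12 h, against 9.68 without 4sU. On the spike-in scale the sum at 12 h would thus stand above that without 4sU.

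**Figure D1:**
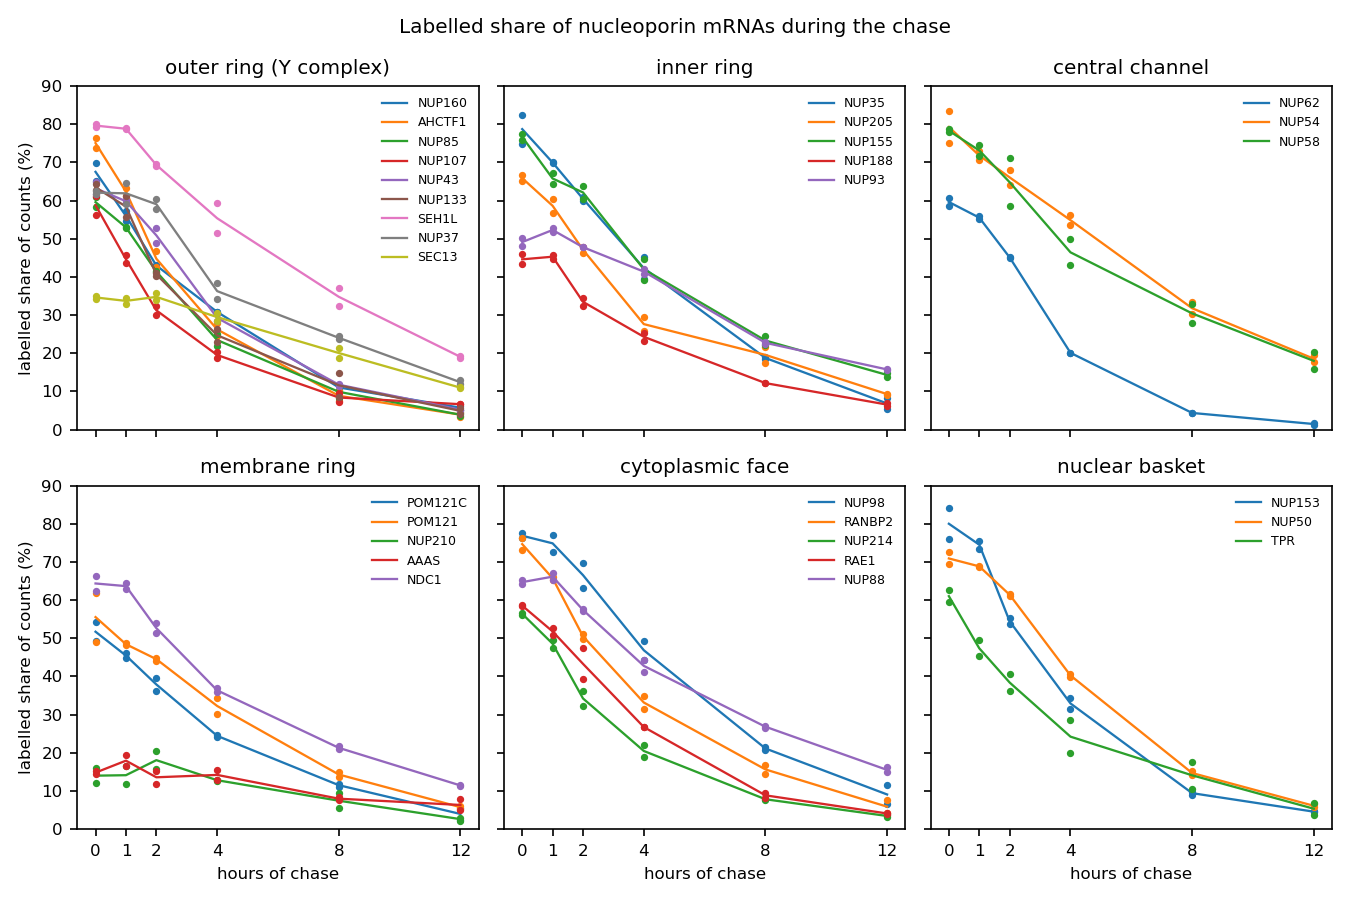
Labelled share of counts (vertical axis, %) against hours of chase (horizontal axis) for the 30 genes, in 6 panels by place in the pore. Points are single libraries and lines join the means of 2. NUP62 lies lowest of the central channel at every time, and NUP210 and AAAS start at 14.0 and 14.8% in the membrane ring.

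Loss of label was measured by how labelled counts sloped over the hours of chase, scaled to the total library, and each slope was compared with the median of all genes tested. All 30 genes were among the 9652 tested. Labelled RNA fell faster than the median for 5 of the 30 (NUP62, NUP153, NUP50, NUP160 and NUP54) and slower for 14 (NUP93, NUP188, NDC1, SEC13, AAAS, NUP210, NUP37, SEH1L, NUP88, NUP133, NUP155, NUP43, NUP107 and RAE1), by edgeR's quasi-likelihood test at a false discovery rate of 0.05. Among all genes tested, 36.0% fell faster and 36.3% slower. The median slope of the 30 genes was −0.21 log2 per hour, against −0.24 for all genes, and slopes ran from −0.47 for NUP62 to −0.033 for NUP93. For 24 of the 30 the replicate series, fitted apart, agreed on the side. With the side of the spike-in composition as a factor, 3 were faster and 9 slower. The shares of all genes were not counted for this agreement or this factor, so neither is set against a background.

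The apparent half-life of the labelled RNA, fitted as 1 exponential over the 12 h, had a median of 4.92 h over the 30 genes (SD of the 2 replicate series 0.243) and 4.30 h over all genes tested. Half-lives were shortest in the nuclear basket, with a median of 3.09 h over 3 genes, and in the central channel, with 3.85 h over 3. They were 4.98 h over 5 genes of the cytoplasmic face, 5.49 h over 5 of the inner ring, 5.68 h over 9 of the outer ring and 7.62 h over 5 of the membrane ring. All genes of the basket and channel lay below 4.30 h, and each other place held genes on both sides of it. The order depended on the scale: when each gene was scaled to its own total, as described further on, the channel had the highest median (5.54 h) and the outer ring the lowest (3.25 h).

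**Figure D2:**
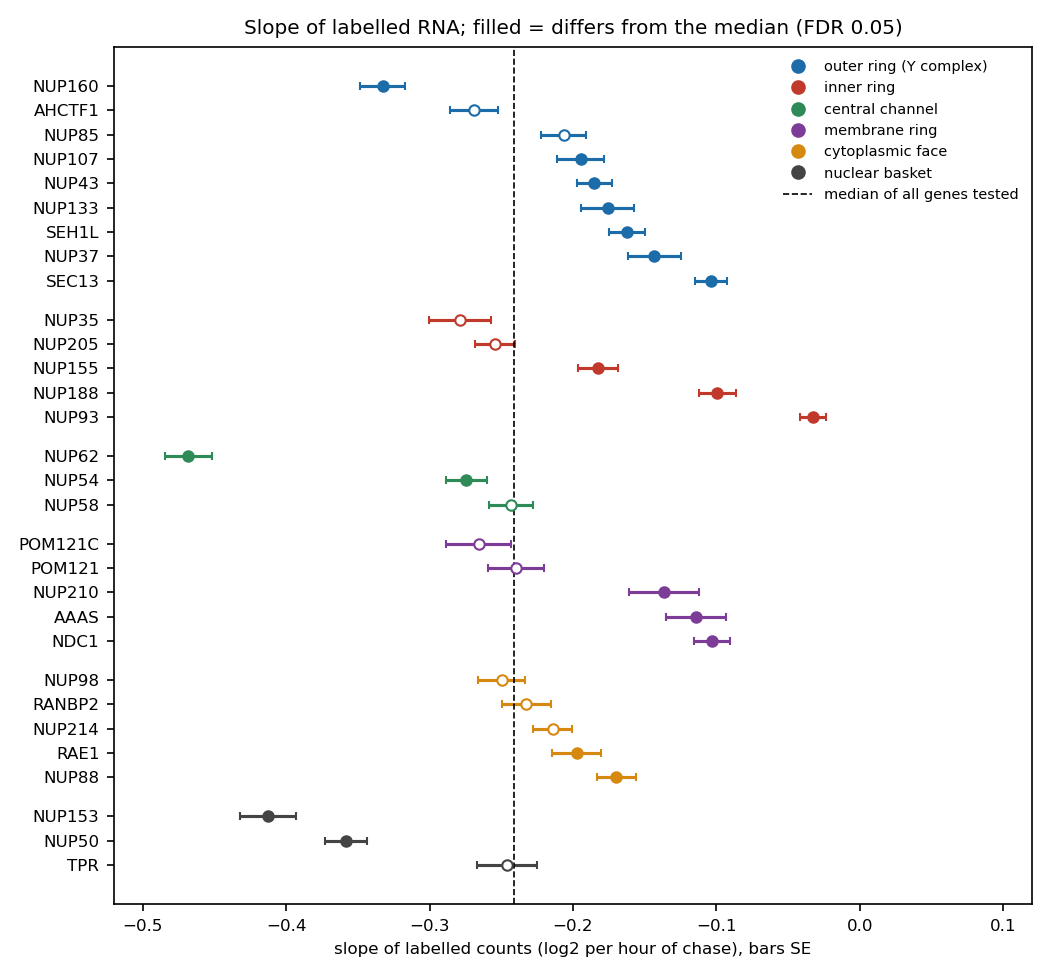
Slope of labelled counts for each of the 30 genes (horizontal axis, log2 per hour of chase; bars are SE), grouped by place in the pore down the page. Filled points differ from the median slope of all genes (dashed line, −0.24) at a false discovery rate of 0.05; 5 lie to its left and 14 to its right.

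NUP62 is the central protein of the channel trimer, whose repeats form the permeability barrier with NUP54 and NUP58. Its labelled share was 60.6 and 58.6% (0 h), 55.2 and 55.8% (1 h), 45.2 and 45.0% (2 h), 20.2 and 20.0% (4 h), 4.39 and 4.31% (8 h) and 1.74 and 1.15% (12 h). The 2 libraries of each time lay close together and no 2 times overlapped. Its slope was −0.47 (SE 0.016; adjusted p = 4.0e-12 against the median slope), its half-life was 2.33 h (95% interval 2.00 to 2.79), and 10.4% of all genes tested had a shorter one. The partners had longer ones. NUP54 had 3.85 h (3.36 to 4.51) and NUP58 4.13 h (3.73 to 4.64), with slopes of −0.27 (SE 0.015; adjusted p = 0.044) and −0.24 (SE 0.015; adjusted p = 0.91). The labelled share of NUP54 was 75.0 and 83.5% (0 h), 70.6 and 73.0% (1 h), 67.9 and 64.2% (2 h), 53.6 and 56.1% (4 h), 30.2 and 33.3% (8 h) and 19.5 and 17.6% (12 h). NUP58 was labelled to 77.9 and 78.7% (0 h), 74.6 and 71.6% (1 h), 71.04 and 58.5% (2 h), 43.04 and 49.8% (4 h), 32.9 and 27.9% (8 h) and 15.8 and 20.2% (12 h). For both partners the share at 12 h stood about as high as that of NUP62 at 4 h. The call for NUP54 was kept in 7 of 12 fits that left out 1 library, with an adjusted p of up to 0.15. The NUP62 gene at chr19:49906825-49929763 (minus strand, GRCh38) overlaps IL4I1 and AC011452.1 on its own strand and ATF5 on the other, and since the use of strand in counting is not given in the sources used here, its counts may include reads of those genes.

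After NUP62, the steepest slopes were those of basket genes. NUP153 anchors the basket to the nuclear ring and binds importins. Its labelled share was 76.0 and 84.0% (0 h), 75.6 and 73.4% (1 h), 55.2 and 53.6% (2 h), 31.5 and 34.4% (4 h), 9.03 and 9.79% (8 h) and 4.73 and 4.40% (12 h). The shares of 0 h and 1 h lay close together, and those of the later times were separate. Its slope was −0.41 (SE 0.019; adjusted p = 1.7e-08) and its half-life 2.70 h (2.24 to 3.40). NUP50 is a mobile basket protein that helps to release cargo and recycle importin alpha. It was labelled to 69.3 and 72.5% (0 h), 68.6 and 69.0% (1 h), 61.6 and 61.2% (2 h), 39.96 and 40.5% (4 h), 15.3 and 14.1% (8 h) and 6.48 and 5.73% (12 h). The replicates lay within a few points of each other. Its slope was −0.36 (SE 0.015; adjusted p = 1.2e-07) and its half-life 3.09 h (2.61 to 3.79).

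TPR, the coiled-coil protein that forms the basket's struts, did not pass against the median (slope −0.25, SE 0.021; adjusted p = 0.85). Its share was 59.4 and 62.6% (0 h), 45.2 and 49.5% (1 h), 36.1 and 40.7% (2 h), 19.9 and 28.5% (4 h), 10.5 and 17.6% (8 h) and 6.94 and 3.74% (12 h). TPR had few counts (175 to 1061 in a library), its replicates spread more than those of NUP153, and its half-life was 4.16 h (3.44 to 5.26).

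On the scale of the total library the inner ring held the gene with the flattest slope, NUP93, and that with the next flattest, NUP188. Scaled to the gene's own total, AAAS (8.14 h) and SEC13 (7.53 h) had longer half-lives than NUP93 (6.53 h). NUP93 links the ring to the channel trimer, and its labelled share was 48.1 and 50.2% (0 h), 51.6 and 52.9% (1 h), 47.8 and 47.8% (2 h), 40.6 and 42.1% (4 h), 23.0 and 22.4% (8 h) and 15.8 and 15.7% (12 h). Its labelled CPM of the total library were 49.3 and 54.4 (0 h), 57.1 and 58.7 (4 h) and 42.8 and 45.6 (12 h). The share at 12 h was far below that of 0 h, whereas the labelled level was only a little below it. The slope was −0.033 (SE 0.0092; adjusted p = 1.9e-16), and 98.8% of the genes tested had a steeper one. The fitted half-life of NUP93 was 30.6 h with an upper bound over 48 h, of which only the lower limit of 21.3 h is read.

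NUP188, one of the large adaptors of the inner ring, was labelled to 45.9 and 43.3% (0 h), 44.7 and 45.8% (1 h), 34.5 and 32.4% (2 h), 23.3 and 25.3% (4 h), 12.1 and 12.2% (8 h) and 6.21 and 6.85% (12 h). Its replicates were close at every time. It had a slope of −0.099 (SE 0.013; adjusted p = 2.5e-10) and a half-life of 10.2 h (8.59 to 12.5). NUP155, a ring protein that faces the membrane, also fell slower than the median, with 5.49 h (4.70 to 6.59). NUP205, the paralogue of NUP188, and NUP35, which binds the membrane, did not pass against the median, with 3.89 h (3.54 to 4.32) and 4.05 h (3.22 to 5.44). NUP205 and NUP188 are alternative partners of NUP93, and the intervals of their half-lives did not overlap on this scale. Scaled to their own totals, NUP205 and NUP188 had 4.12 and 4.11 h.

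In the membrane ring 3 of 5 genes fell slower than the median. NDC1, a membrane-spanning anchor, was labelled to 66.2 and 62.4% (0 h), 64.5 and 62.8% (1 h), 53.9 and 51.4% (2 h), 35.8 and 36.8% (4 h), 21.7 and 20.9% (8 h) and 11.7 and 11.2% (12 h). The shares of 0 and 1 h overlapped and the later times were separate. NDC1 had a slope of −0.10 (SE 0.013; adjusted p = 4.0e-10) and a half-life of 9.88 h (7.79 to 13.5). AAAS (ALADIN), which NDC1 holds at the pore, and NUP210 (gp210), a membrane-spanning glycoprotein, had 8.55 h (6.15 to 14.1) and 7.62 h (5.32 to 13.4).

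These 2 genes were set apart by their low label at the end of the pulse. AAAS was labelled to 15.2 and 14.4% (0 h), 16.4 and 19.4% (1 h), 15.3 and 11.8% (2 h), 12.96 and 15.4% (4 h), 7.49 and 8.43% (8 h) and 7.77 and 4.87% (12 h). NUP210 was labelled to 12.0 and 16.0% (0 h), 16.5 and 11.8% (1 h), 20.5 and 15.7% (2 h), 12.96 and 12.6% (4 h), 9.39 and 5.48% (8 h) and 2.19 and 3.02% (12 h). For both, the libraries of 0 to 4 h overlapped and those of 12 h lay below them. The next lowest share at 0 h was that of SEC13, with a mean of 34.6%, followed by NUP188 with 44.6% and NUP93 with 49.1%, and the other 25 genes had means of 51.7 to 80.0%. NUP210 and AAAS had the fewest labelled counts of the set, and their slopes had the largest SEs of the slower genes (0.024 and 0.021).

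POM121 and POM121C encode closely related membrane-spanning nucleoporins on chromosome 7. POM121 was labelled to 49.1 and 61.9% (0 h), 48.7 and 48.1% (1 h), 44.9 and 44.2% (2 h), 34.4 and 30.1% (4 h), 15.0 and 13.6% (8 h) and 6.15 and 5.33% (12 h). POM121C was labelled to 49.2 and 54.2% (0 h), 46.0 and 44.9% (1 h), 39.6 and 36.2% (2 h), 24.2 and 24.6% (4 h), 11.9 and 11.1% (8 h) and 2.35 and 5.57% (12 h). The replicates of POM121 stood well apart at 0 h, and neither gene passed against the median (adjusted p = 0.95 and 0.34). Half-lives were 4.55 h (3.69 to 5.93) and 4.15 h (3.39 to 5.33), with wide overlap. The last 500 bases of their main transcripts had 433 identical positions when aligned with gaps (77.3% of the aligned columns), so reads may have been shared or moved between the 2 genes and the values of each are uncertain.

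The outer ring had 6 genes that fell slower than the median, 1 that fell faster and 2 that did not pass. SEC13, a Y complex subunit that is also part of the COPII vesicle coat, was labelled to 34.3 and 35.0% (0 h), 34.4 and 33.0% (1 h), 33.8 and 35.7% (2 h), 30.6 and 28.3% (4 h), 21.4 and 18.7% (8 h) and 11.03 and 10.9% (12 h). The shares of 0, 1 and 2 h overlapped. SEC13 had a half-life of 10.1 h (7.94 to 13.8; adjusted p of the slope 5.5e-11), and SEH1L, which like SEC13 also serves in the GATOR2 nutrient-sensing complex, had 6.53 h (5.38 to 8.31).

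NUP37, a small Y complex subunit, was labelled to 61.7 and 62.4% (0 h), 59.1 and 64.7% (1 h), 57.7 and 60.4% (2 h), 34.1 and 38.5% (4 h), 23.6 and 24.4% (8 h) and 11.9 and 12.9% (12 h). Its half-life was 7.29 h (5.38 to 11.3), with 8.82 and 6.16 h in the replicate series. NUP133, NUP43 and NUP107, also Y complex subunits, had 5.79 h (4.67 to 7.59), 5.68 h (4.95 to 6.65) and 4.86 h (4.07 to 6.03). The replicate series of NUP133 gave 7.62 and 4.52 h. NUP133 was labelled to 62.6 and 64.2% (0 h), 55.6 and 61.2% (1 h), 40.2 and 41.02% (2 h), 22.97 and 26.4% (4 h), 14.7 and 8.48% (8 h) and 5.68 and 4.10% (12 h), and its replicates stood apart at 8 h. NUP107 kept its call in 10 of 12 fits that left out 1 library (adjusted p up to 0.31). NUP160, at the tip of the Y, fell faster than the median, with a slope of −0.33 (SE 0.016; adjusted p = 1.3e-05) and 2.97 h (2.70 to 3.31). NUP85, another arm subunit, and AHCTF1 (ELYS), which brings the Y complex to chromatin after mitosis, did not pass, with 5.07 h (4.32 to 6.15) and 3.95 h (3.29 to 4.93), though NUP85 passed as slower in 6 of 12 fits that left out 1 library (adjusted p 0.036 to 0.17).

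On the cytoplasmic face RAE1, an mRNA export factor that binds NUP98, and NUP88, a scaffold of the export platform, fell slower than the median. RAE1 was labelled to 58.5 and 58.6% (0 h), 52.8 and 50.8% (1 h), 39.2 and 47.4% (2 h), 26.6 and 26.8% (4 h), 9.56 and 8.12% (8 h) and 4.14 and 4.03% (12 h). Its replicates stood apart at 2 h and close at the other times. Half-lives were 5.57 h (4.27 to 8.02) for RAE1 and 5.80 h (4.94 to 7.05) for NUP88. RANBP2, NUP98 and NUP214 did not pass against the median.

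RANBP2 (NUP358), which forms the cytoplasmic filaments and binds Ran, was labelled to 76.2 and 73.2% (0 h), 66.2 and 65.3% (1 h), 51.2 and 49.8% (2 h), 31.4 and 35.0% (4 h), 14.6 and 16.7% (8 h) and 7.55 and 4.18% (12 h). Its half-life was 4.48 h (3.90 to 5.25). RANBP2 has partial copies, the RGPD genes, yet over the 13 libraries RANBP2 had 6650 total counts, against 221 for the RGPD gene with the most. NUP98, whose precursor also yields NUP96 of the Y complex, had 4.23 h (3.59 to 5.14). NUP214, the docking site for the mRNA export helicase, had 4.98 h (4.25 to 6.01) and passed as slower in 2 of 12 such fits (adjusted p 0.033 to 0.20).

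K562 cells are known to carry a fusion of the 5′ part of NUP214 with the 3′ part of XKR3, and 3′ reads of such a transcript would be counted on XKR3. XKR3 had 71 to 249 total counts in a library. It was labelled to 71.3 and 70.4% (0 h), 70.5 and 64.7% (1 h), 39.7 and 39.7% (2 h), 26.9 and 22.5% (4 h), 11.6 and 11.5% (8 h) and 1.90 and 2.61% (12 h). Its slope was −0.32 (adjusted p = 0.049) and its half-life 3.49 h (2.69 to 4.96), which overlapped that of NUP214. How many of the XKR3 reads came from a fusion was not tested.

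The curvature of loss was tested as a quadratic term against its median over all genes. That median was itself negative, at −0.0088 log2 per hour squared, and the median of the 30 genes was −0.0095. Loss of label thus grew steeper during the chase for the typical gene, and half-lives from 1 exponential are averages over the 12 h. Against the median, the term was more negative for 1 of 30 genes and more positive for 1, against 3.54% and 3.68% of all genes tested. On the scale of the gene's own total the counts were 0 and 6. Negative terms numbered 0 without the second replicate of 4 h and 2 without the second of 8 h. Positive ones numbered 2 without the first replicate of 0 h or of 2 h. For these fits the shares of all genes were not counted. NUP35 had the negative term (−0.015 from the median, SE 0.0037; adjusted p = 0.014), with 82.5 and 74.9% labelled at 0 h, 39.4 and 45.1% (4 h) and 8.15 and 5.51% (12 h). NUP107 had the positive one (0.022, SE 0.0039; adjusted p = 0.00074), with 61.3 and 56.2% (0 h), 20.4 and 18.6% (4 h) and 6.68 and 6.59% (12 h). Its 8 h values were 7.35 and 9.44%, close to those of 12 h. Over 0 to 4 h alone NUP107 lay 0.10 log2 per hour below the median slope.

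The scale mattered for genes whose total moved during the chase. Scaled to the gene's own total, which follows the labelled share, 11 of the 30 genes fell faster than the median and 13 slower, against 38.3% and 39.8% of all genes tested. The calls were shared by both scales for 4 faster genes and 10 slower ones. RAE1, NUP43 and NUP133 changed from slower to faster on this scale (differences from the median slope of −0.068, −0.047 and −0.046 log2 per hour), NUP107 turned to −0.0088 without passing, and NUP54 changed from faster to slower (0.096). AHCTF1, NUP214, NUP85 and RANBP2 became faster and NUP58 and NUP205 slower. The median half-life of the 30 genes was 3.75 h on this scale, against 3.79 h for all genes, and NUP93 had 6.53 h, NUP188 4.11 h and NDC1 4.62 h.

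**Figure D3:**
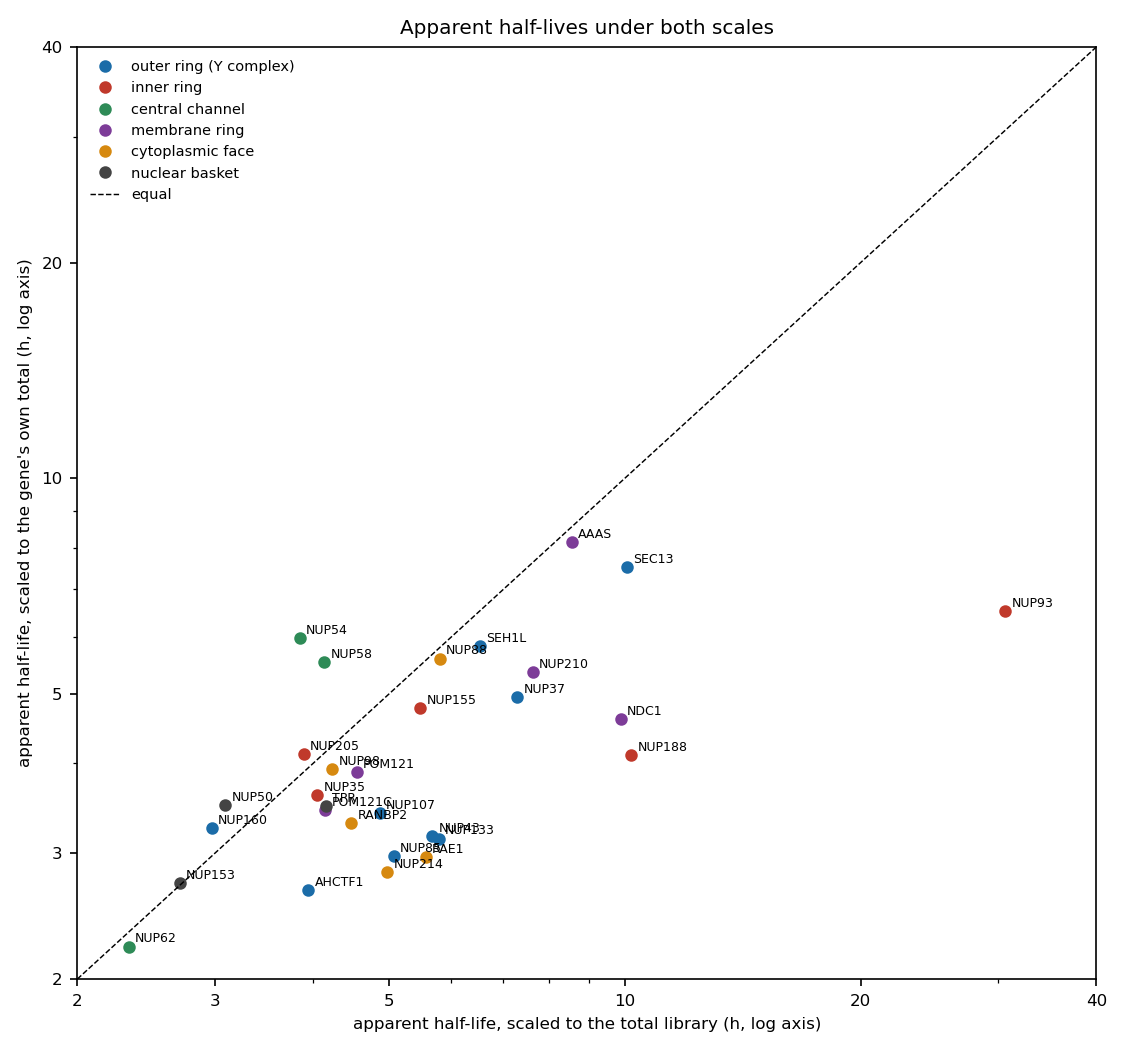
Apparent half-life of each of the 30 genes scaled to the total library (horizontal axis, h, log axis) against the same scaled to the gene's own total (vertical axis, h, log axis), coloured by place in the pore. NUP54 and NUP58 lie above the dashed line of equality and NUP93, NUP188 and NDC1 far below it.

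The 3′ untranslated regions were searched for elements known to bind decay factors, because the libraries read 3′ ends. The letters were TGTANATA for the Pumilio element. They were TATTTAT for the AU-rich heptamer, inside which lies the AU-rich pentamer of the letters ATTTA, all read on the transcript strand of the main GENCODE 29 transcript. In the last 500 bases of the region, the Pumilio letters were found in 6 of 21 genes of the set with a region that long, against 14.73% of 6000 genes tested. The pentamer was found in 12 of 21 against 63.45%, and the heptamer in 0 of 21 against 15.12%. Over the whole region the Pumilio letters were in NUP153 among the faster genes and in NUP107, NUP37, NUP210 and NDC1 among the slower ones. The heptamer was in NUP160 among the faster and in NUP107, NUP155 and NUP188 among the slower. Sites of 5 of these genes, of both directions, are shown from 5′ to 3′ with the element in capitals.
NUP153: tatgaaacttgTGTAAATAcaattttgttt
NDC1: gtgtgtcatccTGTAAATAttcatgatagt
NUP210: gacaacctggaTGTAAATAggagcctttct
NUP160: tgtgtacttttTATTTATtttggaggtttt
NUP188: attctgtggtcTATTTATacagatattaaa
POM121 and POM121C share a Pumilio element and the bases after it, here 1789 and 1730 bases from the transcript end, which shows how alike the copies are.
POM121: aaggaaacaccTGTACATAgtgtccgctgc
POM121C: aactaaggaccTGTACATAgtgtccgctgc
NUP62 and NUP93, with the steepest and the flattest slope on the scale of the total library, had short regions of 133 and 160 bases with none of these letters. The median GC content of the region was 33.7% over the 5 faster genes, 32.8% over the 11 that did not pass, 40.3% over the 14 slower ones, 37.2% over all 30 and 42.0% over 8326 genes tested.

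Total RNA was compared between times to see how the levels of the pore mRNAs moved after the wash. All 30 genes were among the 16255 tested. At 2 h, 6 genes were higher than at 0 h and 1 was lower, against 5.25% higher and 1.73% lower of all genes, and these libraries lay on the same side of the spike-in composition. The higher genes were AHCTF1 (log2 fold change 0.60, SE 0.083), RAE1 (0.57, SE 0.081), NUP214 (0.52, SE 0.068), NUP35 (0.35, SE 0.097), NUP153 (0.32, SE 0.093) and NDC1 (0.31, SE 0.090), and NUP210 was lower (−0.45, SE 0.10). The count of higher genes was 3 with DESeq2, and 3 without the first replicate of 0 h or the second of 2 h. Background shares were not counted for these fits. NUP210 had 27.7 and 26.9 CPM at 2 h and 35.6 and 37.5 at 0 h, and its call was lost without the second replicate of 0 h or of 2 h.

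By 12 h, 15 of the 30 genes were higher in total RNA than at 0 h and 5 were lower, against 27.0% higher and 29.1% lower of all genes tested. The median log2 fold change was 0.27 over the 30 genes and −0.06 over all genes. The higher genes were RAE1, NUP188, NUP133, NUP214, NUP85, NUP43, NUP93, NDC1, AHCTF1, NUP107, RANBP2, NUP37, NUP210, TPR and SEC13, and the lower ones NUP54, NUP58, NUP50, NUP153 and NUP160. With spike-in totals as library sizes 24 were higher and 2 lower, on a scale where the median gene moved by 0.39. With a factor for the spike-in side 13 were higher and 3 lower. How many of all genes were called in these fits was not counted.

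RAE1 had the largest rise. It had 231 and 242 CPM at 12 h and 73.4 and 70.3 at 0 h (log2 fold change 1.57, SE 0.080; adjusted p = 3.9e-15). NUP188 had 131 and 135 CPM at 12 h and 42.6 and 39.5 at 0 h (1.55, SE 0.080; adjusted p = 5.8e-15). NUP133 had 67.3 and 66.5 at 12 h and 18.1 and 25.8 at 0 h (1.47, SE 0.12; adjusted p = 2.7e-11). In none of these did the libraries of 12 h and 0 h overlap. Having been picked by this change, these genes gain no added support from that. Between those times RAE1 stood at 89.6 and 81.8 (1 h), 111 and 108 (2 h), 156 and 162 (4 h) and 219 and 237 (8 h). NUP188 stood at 39.3 and 41.7 (1 h), 50.2 and 50.95 (2 h), 66.8 and 66.1 (4 h) and 106 and 97.8 (8 h). NUP133 stood at 23.3 and 21.7 (1 h), 27.9 and 27.6 (2 h), 40.5 and 34.9 (4 h) and 56.9 and 56.2 (8 h). All of them had higher levels at 8 h than at 4 h, and at 4 h than at 2 h. NUP93 rose to 271 and 291 CPM at 12 h, against 103 and 109 at 0 h (1.26, SE 0.071), and NDC1 to 122 and 121, against 47.4 and 46.4 (1.22, SE 0.088). SEC13, among those with the most counts, had 261 and 245 CPM at 12 h and 186 and 177 at 0 h (0.33, SE 0.072; adjusted p = 0.00034). Between those times NUP93 stood at 99.1 and 106 (1 h), 110.0 and 122 (2 h), 141 and 139 (4 h) and 215 and 223 (8 h). NDC1 stood at 55.4 and 45.7 (1 h), 58.6 and 60.4 (2 h), 74.8 and 73.1 (4 h) and 108 and 110.5 (8 h). SEC13 stood at 186 and 181 (1 h), 195 and 178 (2 h), 198 and 202 (4 h) and 240.2 and 236 (8 h). All 3 stood above their 0 h libraries from 4 h on.

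The genes that fell were in the channel and the basket, apart from NUP160. NUP54 had 33.0 and 25.7 CPM at 12 h and 61.6 and 59.97 at 0 h (−1.21, SE 0.11; adjusted p = 2.3e-10). NUP58, the gene with the fewest counts, had 17.6 and 14.7 at 12 h and 22.5 and 28.7 at 0 h (−0.81, SE 0.14; adjusted p = 1.8e-05). NUP50 had 156 and 154 at 12 h and 209 and 205 at 0 h (−0.57, SE 0.067; adjusted p = 4.0e-08). The libraries of 12 h and 0 h did not overlap for any of the 3. As the 3 were picked by this same change, that adds no support. Between those times NUP54 stood at 55.8 and 57.8 (1 h), 60.1 and 64.6 (2 h), 57.7 and 49.7 (4 h) and 41.3 and 36.5 (8 h). NUP58 stood at 23.4 and 23.5 (1 h), 20.7 and 26.9 (2 h), 24.1 and 22.5 (4 h) and 19.8 and 17.4 (8 h). NUP50 stood at 202 and 219 (1 h), 213 and 220.4 (2 h), 213 and 216 (4 h) and 178 and 179.8 (8 h). NUP50 stood near its 0 h level up to 4 h, and both NUP54 and NUP50 were below theirs at 8 h. NUP153 had 69.9 and 67.3 at 12 h and 94.7 and 84.7 at 0 h, with 89.6 and 89.8 (1 h), 102 and 128 (2 h), 126 and 102 (4 h) and 92.6 and 80.9 (8 h) between (12 h against 0 h −0.54, SE 0.097; adjusted p = 2.8e-05), and the level in the middle of the chase was above that of 12 h. NUP160 fell by 0.25 (SE 0.092; adjusted p = 0.023), a direction that turned with spike-in totals (0.17). NUP62, the gene with the most counts and the partner of NUP54 and NUP58 in the channel, had 229.5 and 237 at 12 h and 212 and 207 at 0 h (0.0070, SE 0.071; adjusted p = 0.94), with 209.8 and 202 (1 h), 219 and 214 (2 h), 223 and 248 (4 h) and 256 and 259 (8 h) between.

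Among the genes that rose, those with few counts had wider errors. NUP37 had 36.5 and 35.7 CPM at 12 h and 20.0 and 21.0 at 0 h (0.67, SE 0.17; adjusted p = 0.0016), with 20.5 and 23.5 (1 h), 21.4 and 25.6 (2 h), 42.4 and 25.6 (4 h) and 38.6 and 25.5 (8 h) between. TPR had 30.1 and 33.4 at 12 h and 17.4 and 24.7 at 0 h (0.45, SE 0.13; adjusted p = 0.0041), with 20.3 and 20.8 (1 h), 25.1 and 26.9 (2 h), 31.8 and 27.3 (4 h) and 28.6 and 24.6 (8 h) between. RANBP2 had 47.2 and 55.9 at 12 h and 27.9 and 28.5 at 0 h (0.72, SE 0.10; adjusted p = 8.9e-07). RANBP2 stood at 31.2 and 31.4 (1 h), 31.5 and 35.3 (2 h), 42.1 and 40.4 (4 h) and 52.9 and 52.05 (8 h) between. The replicates of NUP37 stood apart at 4 and 8 h. Those of 4 h lie on different sides of the spike-in composition, and those of 8 h on the same one. POM121 had 42.4 and 42.4 at 12 h and 34.2 and 32.1 at 0 h (0.20, SE 0.11; adjusted p = 0.11), and POM121C 44.3 and 50.4 at 12 h and 38.2 and 37.1 at 0 h (0.18, SE 0.10; adjusted p = 0.12). Neither passed. Between those times POM121 stood at 32.00 and 39.2 (1 h), 37.5 and 37.3 (2 h), 43.6 and 48.7 (4 h) and 47.4 and 48.3 (8 h). POM121C stood at 39.2 and 40.96 (1 h), 44.8 and 47.2 (2 h), 60.3 and 59.9 (4 h) and 54.1 and 61.4 (8 h). Both were above their 0 h level at 4 and 8 h. XKR3 had 9.12 and 11.9 at 12 h and 10.0 and 7.88 at 0 h (0.08, SE 0.18; adjusted p = 0.73), against 288 and 287 at 12 h and 93.8 and 98.95 at 0 h for NUP214 (1.43, SE 0.067). XKR3 stood at 10.1 and 9.66 (1 h), 16.3 and 13.98 (2 h), 19.5 and 20.7 (4 h) and 18.1 and 14.8 (8 h) between, and passed as higher at 2 h than at 0 h (0.72, SE 0.17; adjusted p = 0.0087).

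**Figure D4:**
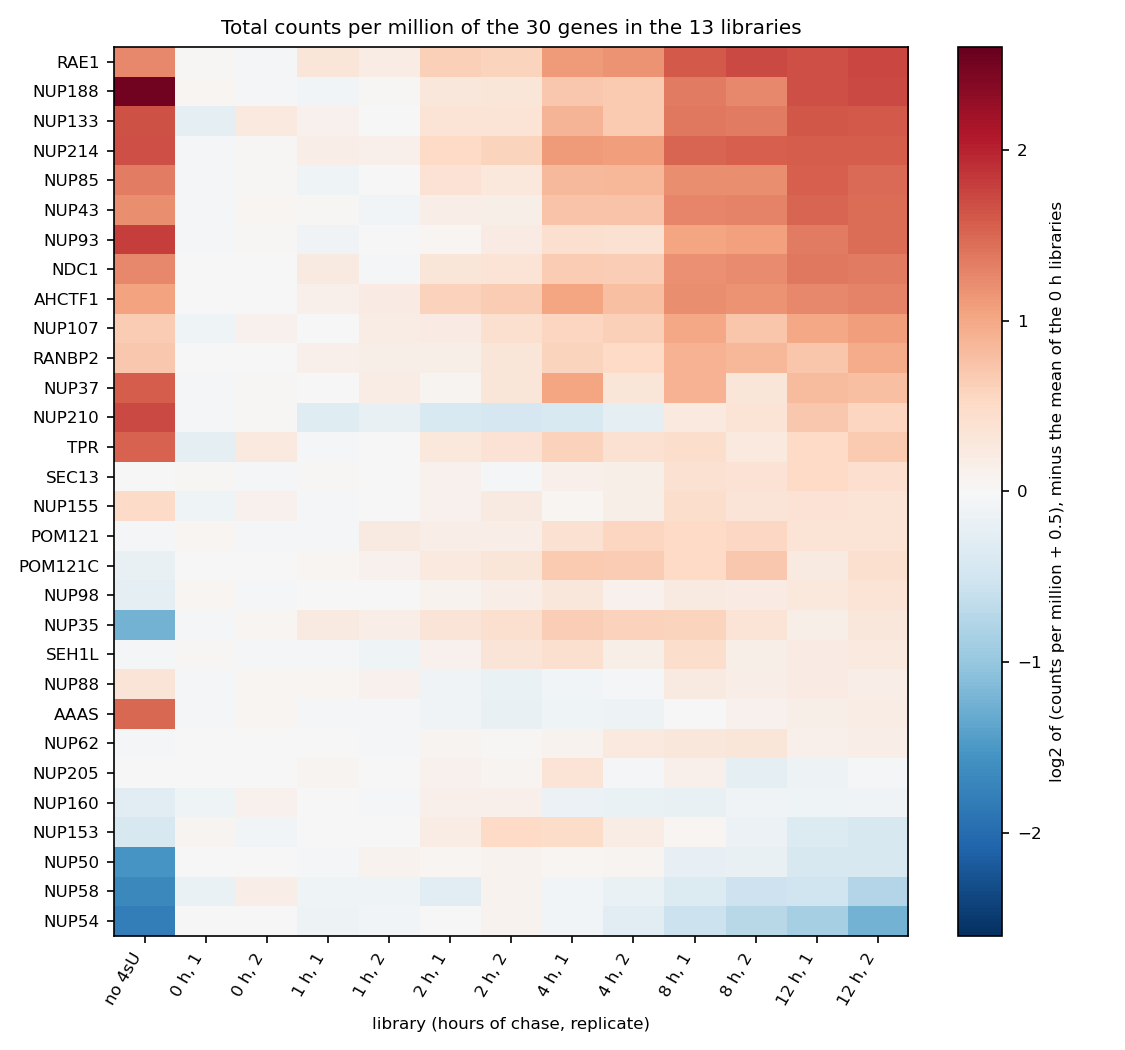
Total level of each of the 30 genes (rows, ordered by the change at 12 h against 0 h) in each library (columns, hours of chase and replicate), as log2 of CPM plus 0.5 minus the mean of the 0 h libraries. Red is higher and blue lower than at 0 h; the rows from RAE1 to AHCTF1 are red at both 12 h and no 4sU, and NUP54 and NUP58 are blue at both.

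For the end of the pulse, 0 h was set against the 1 library without 4sU, which has no replicate and borrows the spread of the other groups. The labels give no medium exchange or uridine for that library, so 4sU and handling cannot be told apart. Its summed erythroid markers also stood at 4456 CPM, against at least 9617 in the chase libraries. Both limits hold for 12 h against no 4sU as well. At 0 h, 5 genes were higher than without 4sU and 17 lower, against 33.5% higher and 31.8% lower of all genes tested. The median log2 fold change was −0.64 over the 30 genes and 0.06 over all genes. These libraries lie on different sides of the spike-in composition, and 12.7 to 16.3 human counts were read per spike-in count in the chase libraries, against 9.68 without 4sU. With spike-in totals as library sizes 13 genes were higher and 13 lower, on a scale where the median gene moved by 0.48. With a factor for the spike-in side, which only the replicates of 4 h inform within a time, 4 were higher and 16 lower. Neither setting has a counted share of all genes beside it.

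The lowest fold changes were those of 2 inner ring genes. NUP188 had 42.6 and 39.5 CPM at 0 h and 235 without 4sU (−2.57, SE 0.089; adjusted p = 7.2e-19). NUP93 had 103 and 109 at 0 h and 366 without 4sU (−1.85, SE 0.081; adjusted p = 7.6e-17). NUP210 and NUP214 were lower by similar amounts (−1.78, SE 0.11, and −1.74, SE 0.077), and NUP133, NUP37, TPR, AAAS, NUP85, NDC1, RAE1, NUP43 and AHCTF1 had log2 fold changes of −1.71 to −1.097. RANBP2, NUP107, NUP155 and NUP88 had −0.76 to −0.40, though NUP88 turned to 0.081 with spike-in totals.

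The 5 higher genes were NUP54, with 61.6 and 59.97 CPM at 0 h and 17.0 without 4sU (1.78, SE 0.14), NUP58, with 22.5 and 28.7 against 7.63 (1.68, SE 0.18), NUP50, with 209 and 205 against 71.4 (1.48, SE 0.088), NUP35, with 35.2 and 38.1 against 15.3 (1.21, SE 0.13), and NUP153, with 94.7 and 84.7 against 66.6 (0.38, SE 0.12). All 5 passed at adjusted p-values of 0.0062 or below. NUP62 and SEC13, the genes with the most counts, stood at 212 and 207 against 202 and at 186 and 177 against 180.1, and neither passed. Without 4sU the other genes whose libraries are given above had 170.4 CPM for RAE1, 68.7 for NUP133, 112 for NDC1, 60.9 for TPR, 61.6 for NUP37, 46.2 for RANBP2, 32.1 for POM121, 32.7 for POM121C and 6.83 for XKR3. POM121, POM121C and XKR3 did not pass.

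At 12 h, 8 genes were higher and 9 lower than without 4sU, against 26.2% and 24.9% of all genes tested, within 1 side of the spike-in composition. With spike-in totals 25 were higher and 2 lower, on a scale where the median gene moved by 0.92. The share of all genes called on that scale was not counted. NUP54 (0.57, SE 0.14), NUP58 (0.87, SE 0.19), NUP50 (0.91, SE 0.086) and NUP35 (1.29, SE 0.13) were higher at 12 h than without 4sU, along with NUP98, POM121C, SEC13 and RAE1. AAAS stood lowest against it (−1.54, SE 0.10), with 43.6 and 44.8 CPM at 12 h against 112 without 4sU, and did not pass at 12 h against 0 h, where it had 38.0 and 40.9 (0.018, SE 0.096; adjusted p = 0.89). NUP210 (−1.29, SE 0.10), TPR (−1.14, SE 0.13), NUP188 (−1.02, SE 0.083) and NUP37 (−0.98, SE 0.18) were also lower. The comparisons of 12 h, 2 h and no 4sU with 0 h share the 0 h libraries, so opposite signs in them are not independent, and the values are given side by side only.

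**Figure D5:**
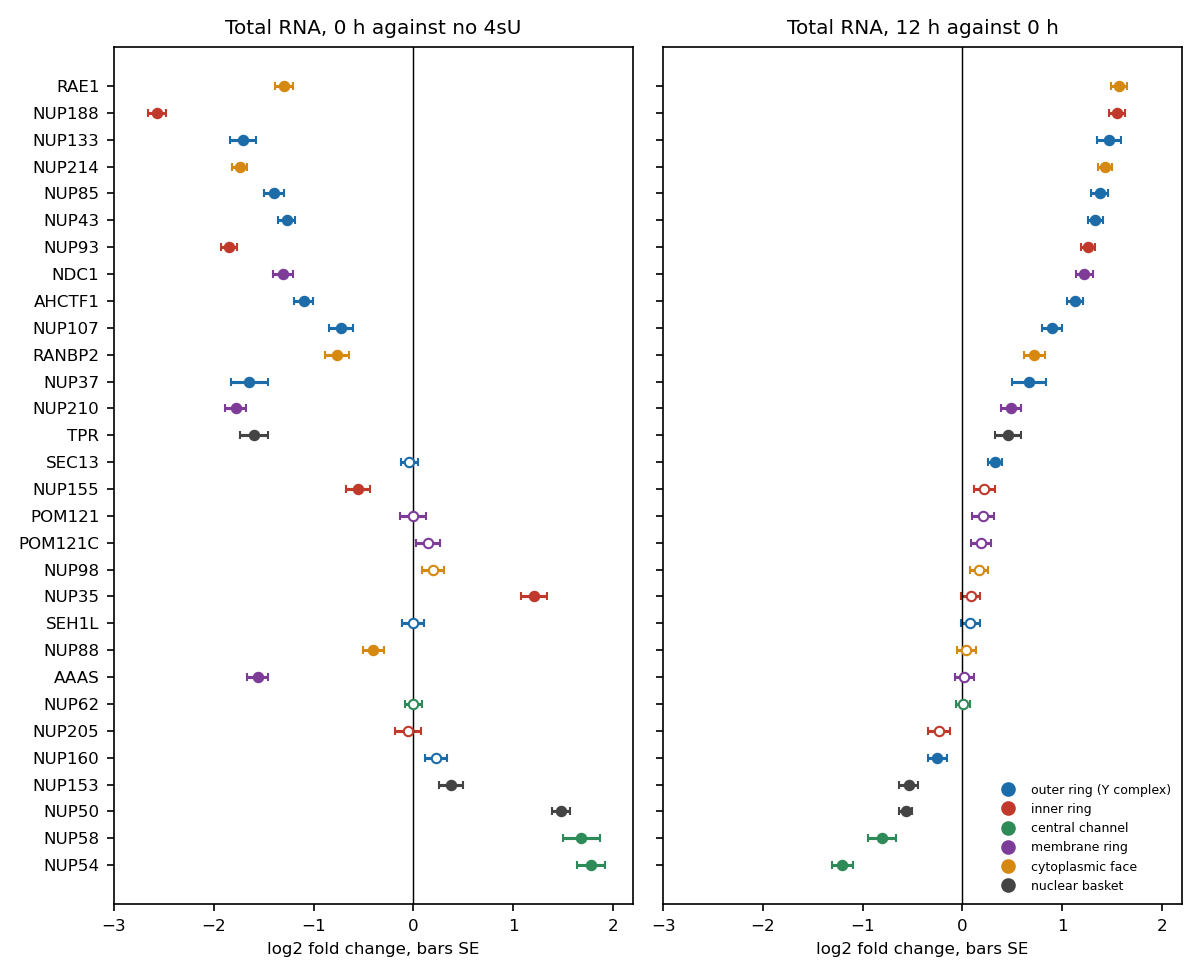
Log2 fold change of total RNA (horizontal axis, bars SE) of the 30 genes at 0 h against no 4sU (left) and at 12 h against 0 h (right), with genes down the page in the order of the right panel. Filled points passed a false discovery rate of 0.05; 5 are higher and 17 lower on the left, and 15 higher and 5 lower on the right, and both panels share the 0 h libraries.

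The promoters of the pore genes were read to see whether genes that moved together share motifs. RefSeq (GRCh38.p14) gave 36 promoters of 300 bases, from 250 before to 50 after the start, for 28 of the 30 genes. Searched on both strands were the ETS motif, with the letters CCGGAAG, the CCAAT box, the GC box, with the letters GGGCGG, the E2F motif, with the letters GCGGGAA, and the NRF1 motif. The ETS letters were in 14 of 36 promoters (38.89%), against 10.26% of 35116 promoters, and in 13 of 28 genes. Those 35116 are all RefSeq promoters of this length, whether or not the gene had counts here. The pore genes all had counts, so these shares do not compare like genes. Genes with several starts also enter more than once, as NUP98 and SEC13 do with overlapping promoters. The NRF1 motif was in 3 of 36 (8.33%) against 1.24%, the E2F letters in 16.67% against 6.55%, the CCAAT letters in 36.11% against 34.61% and the GC box in 47.22% against 44.95%. Among genes with a promoter here, the ETS letters were in 4 of 5 that were higher at 0 h than without 4sU and in 4 of 15 that were lower, and the GC box was in 1 of 5 and 8 of 15. The CCAAT box was in 1 of 5 and 7 of 15, E2F in 1 of 5 and 3 of 15, and NRF1 in 1 of 5 and 1 of 15. Of the 8 genes with a promoter that did not pass, 5 held the ETS letters and 5 the GC box. This split rests on the 1 library without 4sU. By 12 h against 0 h, the ETS letters were in 4 of 5 lower genes and 4 of 13 higher ones. The CCAAT box was in 0 of 5 and 6 of 13, and the GC box in 2 of 5 and 7 of 13. Among the 10 that did not pass there, ETS was in 5, the CCAAT box in 4 and the GC box in 5. These counts were made after the changes were known, carry no test, and describe letters and not sites of binding. The promoters of the pair that fell most by 12 h and of the 3 genes that rose most are shown, with any of these motifs in capitals: NUP54 (chr4:76148348-76148647, minus strand), NUP58 (chr13:25301375-25301674, plus strand), RAE1 (chr20:57351292-57351591, plus strand), NUP188 (chr9:128947449-128947748, plus strand) and NUP133 (chr1:229508292-229508591, minus strand).
NUP54: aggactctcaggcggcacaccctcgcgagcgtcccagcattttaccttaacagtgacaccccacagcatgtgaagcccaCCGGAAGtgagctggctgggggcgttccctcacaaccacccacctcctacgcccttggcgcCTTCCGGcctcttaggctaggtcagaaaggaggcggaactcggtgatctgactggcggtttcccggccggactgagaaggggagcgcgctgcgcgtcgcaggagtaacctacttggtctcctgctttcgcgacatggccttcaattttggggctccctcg
NUP58: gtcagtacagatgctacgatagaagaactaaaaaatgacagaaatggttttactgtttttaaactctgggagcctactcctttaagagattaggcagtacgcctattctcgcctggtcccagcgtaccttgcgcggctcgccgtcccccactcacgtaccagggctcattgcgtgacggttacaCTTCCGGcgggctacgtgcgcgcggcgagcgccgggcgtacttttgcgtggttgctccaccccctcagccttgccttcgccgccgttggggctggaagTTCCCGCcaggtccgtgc
RAE1: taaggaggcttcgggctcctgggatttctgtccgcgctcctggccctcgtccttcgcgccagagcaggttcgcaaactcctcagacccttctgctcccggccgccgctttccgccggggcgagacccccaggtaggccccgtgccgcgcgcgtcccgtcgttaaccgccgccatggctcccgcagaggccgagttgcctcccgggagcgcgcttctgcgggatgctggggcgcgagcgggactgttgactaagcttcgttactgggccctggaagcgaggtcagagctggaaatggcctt
NUP188: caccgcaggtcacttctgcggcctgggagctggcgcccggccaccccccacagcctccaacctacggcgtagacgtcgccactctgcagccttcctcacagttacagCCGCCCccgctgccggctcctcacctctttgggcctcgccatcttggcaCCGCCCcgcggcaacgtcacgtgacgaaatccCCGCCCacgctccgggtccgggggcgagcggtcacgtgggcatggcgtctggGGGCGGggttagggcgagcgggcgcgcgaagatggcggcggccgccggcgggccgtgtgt
NUP133: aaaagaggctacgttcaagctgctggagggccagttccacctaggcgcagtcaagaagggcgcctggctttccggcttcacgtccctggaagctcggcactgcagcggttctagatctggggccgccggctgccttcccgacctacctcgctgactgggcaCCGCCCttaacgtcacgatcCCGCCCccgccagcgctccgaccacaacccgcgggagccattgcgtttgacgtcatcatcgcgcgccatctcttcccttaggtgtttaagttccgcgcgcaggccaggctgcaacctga
The motifs found were ETS in NUP54, ETS and E2F in NUP58, and the GC box in NUP188 and NUP133. RAE1, which rose most, held none of them.

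Other genes of nuclear transport were counted in the same fits. Among importins and their adaptors 4 of 17 fell faster than the median and 7 slower, among exportins 0 of 7 and 5 of 7, among genes of the Ran cycle 1 of 6 and 4 of 6, among mRNA export factors at the pore 3 of 8 and 5 of 8, and among lamina and envelope genes 4 of 14 and 7 of 14. The background is that of the pore genes, 36.0% faster and 36.3% slower. These calls are on the scale of the total library. Scaled to the gene's own total, XPO5 and XPO6 turned from slower to faster among exportins (−0.046 and −0.037 from the median slope). There XPO7 and XPOT stayed slower and CSE1L did not pass. Calls changed in the other lists too. Among importins TNPO3 turned from slower to faster (−0.028) and KPNA2 from faster to slower (0.034). The slower calls of TNPO1, IPO8, RANGAP1, GLE1, DDX19A, LMNB1 and SUN2 were lost, as were the faster ones of KPNA5, NUP42 and TOR1AIP1. Others passed only on that scale, as KPNA1 did (−0.076). Half-lives ran from 2.39 h for KPNA6, an importin alpha, to 7.35 h for IPO8, an importin beta that also serves Argonaute proteins. They ran from 4.71 h for XPO1, the main export receptor, to 8.23 h for XPO7, and from 3.59 h for RANBP3, a cofactor of XPO1, to 11.4 h for RAN itself. NXT1, which pairs with NXF1 in mRNA export, had the shortest of all the lists at 1.86 h, and ALYREF, an export adaptor, had 7.83 h. LEMD3, a protein of the inner nuclear membrane, had 2.30 h, and LMNB2, a B-type lamin, had a lower limit of 21.1 h. Scaled to the gene's own total, median half-lives were 3.52 h for importins, 3.84 h for exportins and 5.96 h for the Ran cycle. They were 3.95 h for export factors and 3.70 h for lamina and envelope genes, against 3.79 h for all genes tested. The extremes moved as well: on that scale LMNB2 had 6.27 h, and RANBP1 with 16.1 h lay above RAN with 8.08 h. At 12 h against 0 h, total RNA was higher for 11 of 17 importins, 5 of 7 exportins, 4 of 6 Ran cycle genes, 4 of 8 export factors and 7 of 14 lamina genes, and lower for 3, 1, 2, 3 and 5, against 27.0% higher and 29.1% lower of all genes tested.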

How the data were processed

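RNA of K562 cells was measured in 13 SLAM-seq libraries of 3′ ends, grouped by their titles. The authors deposited 3 tables of raw counts: all reads per human gene, nascent reads per human gene, and reads per Drosophila gene, each column named for 1 library. Per the submitters' processing notes the software was Trim Galore 0.6.5, bcl2fastq 2.17.1.14 and bedtools, and the genomes were dm6 and hg38. No source used here names the aligner, the annotation, the use of strand or the conversions that define nascent reads (not given in the sources used here). Coordinates are GENCODE 29 gene spans on GRCh38, counted from 1.

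Slopes of labelled counts in the 12 chase libraries were tested by edgeR 4.0.16 (R 4.3.3) with two-sided quasi-likelihood F-tests, adjusted by Benjamini-Hochberg over all genes tested at a false discovery rate of 0.05. The offset was the log of the TMM-scaled total library. Genes needed a mean of 5 CPM and 100 labelled counts. Total counts were tested with edgeR, filterByExpr and TMM over 7 groups that share 1 spread. An exponential plus the labelled share without 4sU was fitted by quasi-Poisson regression for half-lives, with 95% intervals read up to 48 h (Python 3.11.15 with pandas 2.3.3, scipy 1.17.1 and numpy 2.4.6). Fold changes are on the TMM scale, whereas levels are plain CPM of 3′ reads, not scaled to length. The fits were run on simulated counts with known answers, Poisson for half-lives and with 1 fixed spread for the tests. As these libraries spread otherwise, the simulations checked the code and not the intervals or calls given here. DESeq2 1.42.0, other library sizes, offsets, filters and time windows, the spike-in side, the replicate block and each library left out were alternatives; leaving out the library without 4sU for the half-life was added after seeing the data. Figures were drawn with matplotlib 3.10.9.

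The members, lists and tests were chosen with earlier results of these data known. All 30 genes are accounted for. Values in every library are given for the 3 steepest and 3 flattest slopes, the 3 highest and 3 lowest mean levels, the 3 largest rises and falls at 12 h against 0 h, POM121, POM121C, RANBP2, NUP62 and XKR3. Of each other list the shortest and longest half-life are named. Further genes, the promoters and the sites shown were chosen after their values were seen.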

Additional observations from a re-analysis of the deposited data

How the results depend on the processing

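The main fits did not treat replicate numbers as pairs. Over 15 pairs of times, same-numbered libraries had deviations with correlations of −0.125 to 0.371 (median 0.0464), 3 of them over 0.1. Whether same-numbered libraries share a culture or a batch was not tested. Shares of all genes called were counted only for the main fits and for slopes on the own total. The other counts here thus have no background. With the replicate block 4 genes were faster and 14 slower than the median slope. Leaving out 1 library at a time gave 4 to 5 faster and 13 to 16 slower genes, a median apparent half-life of members of 4.89 to 5.08 h, 0 to 2 negative and 1 to 2 positive quadratic terms, 3 to 8 higher and 0 to 1 lower at 2 h against 0 h, 14 to 17 higher and 4 to 6 lower at 12 h against 0 h, 5 higher and 17 lower at 0 h against no 4sU, and 7 to 8 higher and 7 to 10 lower at 12 h against no 4sU. With each gene's own total as offset 11 were faster, 0 had a negative and 6 a positive quadratic term, and that half-life was 3.75 h. Without a filter 8 were faster and 9 slower, and 2 had a negative quadratic term. With a factor for the spike-in side 3 were faster and 9 slower, the half-life was 5.25 h, and 3 were lower at 12 h against 0 h. Over 0 to 4 h 7 were slower and the half-life was 7.58 h, and over 2 to 12 h it was 4.29 h. Positive quadratic terms numbered 2 with DESeq2 size factors, with the DESeq2 test and with 500 labelled counts, and DESeq2 gave 3 higher at 2 h. With spike-in totals 0 were lower at 2 h, 24 higher and 2 lower at 12 h against 0 h, 13 higher at 0 h against no 4sU and 25 higher and 2 lower at 12 h against no 4sU, and the half-life was 5.87 h.

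Differences from the median slope turned with the own total to −0.046 for NUP133, −0.068 for RAE1, −0.0088 for NUP107, −0.047 for NUP43, −0.067 for NUP85, −0.078 for NUP214, 0.096 for NUP54, 0.089 for NUP58, −0.035 for RANBP2 and 0.034 for NUP205, and over 0 to 4 h the NUP133 slope minus the median turned to −0.0055 and the same difference to −0.042 for NUP88, −0.10 for NUP107 and −0.029 for NUP155. With spike-in totals the log2 fold change at 12 h against 0 h turned to 0.17 for NUP160. At 0 h against no 4sU it turned to 0.48 for SEH1L, 0.081 for NUP88, 0.42 for NUP205, 0.44 for SEC13, 0.47 for POM121 and 0.48 for NUP62. At 12 h against no 4sU it turned to 0.87 for NUP160, 0.81 for NDC1, 0.66 for NUP133, 0.31 for NUP93, 0.54 for NUP88, 0.56 for NUP155, 0.73 for NUP153, 0.87 for NUP85, 0.59 for NUP214, 0.86 for RANBP2 and 0.61 for NUP205. On this scale the median over well-counted genes (mean count 10 or more) moved by 0.39, 0.48 and 0.92 in the 3 comparisons; otherwise the cause was not tested. NUP210, AAAS and TPR have the fewest labelled counts and wide intervals.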
